A study of Mus musculus with 24 samples.

Results

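Cdx2 occupancy was described around 10 enteroendocrine genes, the hormone genes Gcg, Pyy, Insl5, Cck and Sct, the secretory granule gene Chga, and the lineage factors Neurog3, Neurod1, Pax6 and Insm1. A Cdx2 peak was counted for a gene when its summit lay in the gene body or within 50 kb to either side of it in the GENCODE vM21 annotation of mm10. These windows held 57 of the 206283 peaks in the 12 Cdx2 lists. Peaks sharing 1 bp or more across libraries were joined into sites, which gave 16 sites of the 10 genes among 61454 merged regions in all.

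The lists came from ChIPmentation, a chromatin immunoprecipitation in which a transposase adds the sequencing adapters while the chromatin is on the beads, with an antibody against Cdx2. Proximal and distal colon organoids came from 3 female mice of 8 weeks, which were heterozygous for a Cre-inducible Braf V600E allele and for a tdTomato reporter. All groups shared this genotype, and no Cre treatment is given for these organoids in the labels. Cultures had spent 4 months in a medium named WENR-plus, which supplies Wnt3a, EGF, Noggin and R-spondin. The proximal WENR-plus and distal WENR-plus groups stayed in it, while the proximal WENR-minus and distal WENR-minus groups had 2 days of WENR-plus after plating and then 3 days without these factors. Each of the 4 groups had 3 libraries, labelled as biological replicates 1 to 3 without naming the mouse. The p-values for fold enrichment therefore measure the spread between these libraries. The 6 libraries of a colon site, or of a medium, came from 3 mice. They are not 6 independent replicates, also where Fisher's exact test counts them as such. The lists held 5608 to 42192 peaks, 11409 to 42192 in the 6 proximal and 5608 to 21040 in the 6 distal libraries. Read depth is not part of the lists, but the study reported it per library, with the share of reads in peaks. In WENR-plus both were lower in every distal library than in every proximal one, and in WENR-minus they overlapped. A missing peak means only that the site did not pass the peak caller's limit in that library. Peak lists hold no expression values, so the presence of enteroendocrine cells in these cultures was not checked here.

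Enteroendocrine cells are the scattered hormone-secreting cells of the gut epithelium. Neurog3 commits a progenitor to this lineage, and Neurod1, Insm1 and Pax6 act after it in hormone-producing cells. In the colon the L cells make proglucagon (Gcg), peptide YY (Pyy) and Insl5, whereas Cck and Sct encode cholecystokinin and secretin, hormones best known from the upper small intestine. Cdx2 is the homeobox factor of the intestinal epithelium, and it is known as an activator of the proglucagon promoter.

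The sequences around the summits of the sites in the most libraries are printed first, because the sites differ in how many copies of the Cdx2 motif they carry. The motif was searched on both strands as TTTAT followed by G or T and then by A or G, and it is shown in capitals. Each line is the plus strand of mm10, 50 bp to either side of the median summit. Sct site 1 is chr7:141276797-141276897, Gcg site 2 is chr2:62513880-62513980, Pax6 site 2 is chr2:105726498-105726598 and Sct site 2 is chr7:141312888-141312988. Pax6 site 1, chr2:105670362-105670462, is shown as the only site inside a member gene. Insl5 site 1, chr4:103011326-103011426, is shown as a site without the motif in this stretch. The last line, chr9:121547640-121547740, is a region upstream of Cck that fell just outside the window and is described with Cck. Sites are numbered along the chromosome within each gene.
Sct site 1: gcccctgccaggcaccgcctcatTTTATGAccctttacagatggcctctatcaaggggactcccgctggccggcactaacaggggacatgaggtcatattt
Gcg site 2: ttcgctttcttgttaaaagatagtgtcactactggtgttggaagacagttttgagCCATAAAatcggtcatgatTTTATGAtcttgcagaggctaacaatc
Pax6 site 2: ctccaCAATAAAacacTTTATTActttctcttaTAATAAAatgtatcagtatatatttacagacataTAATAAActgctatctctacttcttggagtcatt
Sct site 2: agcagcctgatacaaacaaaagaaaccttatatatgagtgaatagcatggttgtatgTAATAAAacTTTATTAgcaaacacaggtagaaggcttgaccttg
Pax6 site 1: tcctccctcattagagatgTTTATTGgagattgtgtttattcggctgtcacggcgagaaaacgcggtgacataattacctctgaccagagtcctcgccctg
Insl5 site 1: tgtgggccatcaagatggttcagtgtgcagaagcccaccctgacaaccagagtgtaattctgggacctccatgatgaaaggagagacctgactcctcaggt
Cck upstream region: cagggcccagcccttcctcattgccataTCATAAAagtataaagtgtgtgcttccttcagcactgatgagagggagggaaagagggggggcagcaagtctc

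Of the 10 genes, 7 had a site in at least 1 library, against a background of 84.5% of 21911 protein-coding genes counted the same way. Pyy, Neurog3 and Insm1 had none. A site called in at least 6 libraries was found for 3 genes (Gcg, Sct and Pax6), against 44.5% of all genes, and a site in all 12 libraries for Sct alone, against 12.9% of all genes. Within 3 kb of one of their own start sites, 2 genes (Sct and Pax6) had a site, against 22.6% of all genes. The median number of sites was 2 per gene both for the members and for all protein-coding genes, whose quartiles were 1 and 5. Density was 14.9 sites per Mb in the windows and 22.5 per Mb over the chromosomes analysed.

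**Figure D1:**
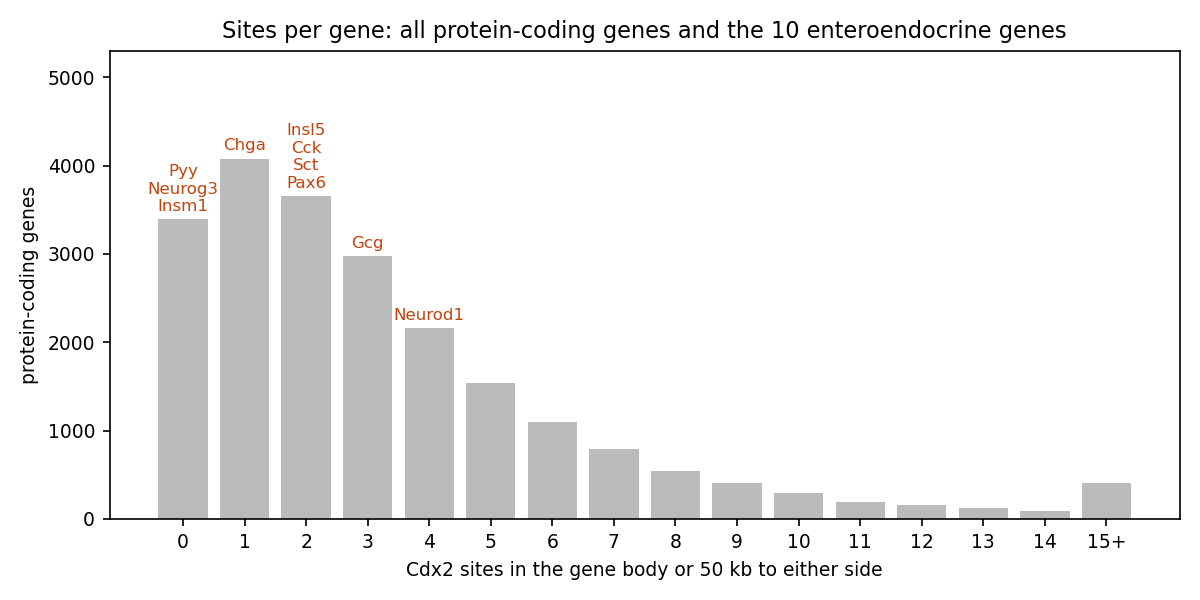
Number of Cdx2 sites in the gene body or 50 kb to either side (x axis) for all 21911 protein-coding genes (bars, number of genes on the y axis), with the names of the 10 enteroendocrine genes above the bar of their own count. The members lie between 0 sites (Pyy, Neurog3 and Insm1) and 4 sites (Neurod1), within the bulk of all genes.

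Most sites were called in few libraries. Of the 16 sites, 7 were called in 1 library, 6 in 2 to 5 libraries and 3 in at least 6. The 3 sites are 18.8% of the 16, and 19.9% of all regions were called in at least 6 libraries. Single-library sites made up 43.8% of the member sites and 42.2% of all regions. By annotation, 9 sites were in introns, 6 were intergenic and 1 was in an exon. The start site of another protein-coding gene was nearer than that of the member for 11 of the 16 sites, so assignment to the member rests on the window alone.

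**Figure D2:**
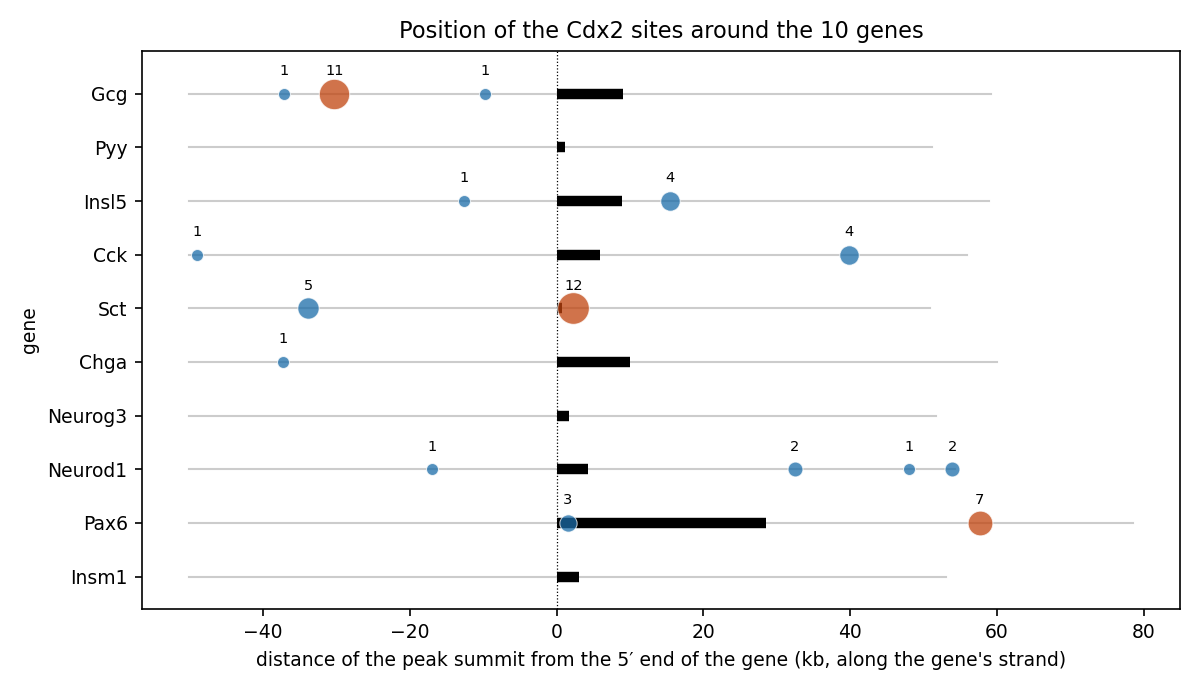
Position of the 16 Cdx2 sites relative to the 5′ end of each gene (x axis, kb along the gene's strand). Black bars are gene bodies, grey lines the windows, circle size and the number above it the libraries with a peak, and orange circles the sites in at least 6 libraries. The site in 11 libraries lies 30.3 kb upstream of Gcg, the site in 12 libraries just past the 3′ end of Sct, and the lines of Pyy, Neurog3 and Insm1 are empty.

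Gcg, which encodes proglucagon, the precursor of GLP-1 and glucagon, had 3 sites, all upstream of the gene. Gcg site 2 (chr2:62513522-62514412) was called in 11 of 12 libraries and lay 30.3 kb from the Gcg start, in an intron of Fap, a fibroblast protease gene whose own start was 10.5 kb away. Its fold enrichment over input was 9.83, 15 and 14.5 in proximal WENR-plus replicates 1, 2 and 3. In proximal WENR-minus it was 9.67, 7.43 and 7.40. The 6 proximal folds, 7.40 to 15, all stood above the distal ones. In distal WENR-plus the folds were 6.17, 6.19 and 7.25. In distal WENR-minus they were 5.16 in replicate 1 and 4.89 in replicate 3, and replicate 2 had no peak. Ranked within its own list, the site was at percentile 68.2 to 96.7 in the proximal and 24.1 to 61.0 in the distal libraries, where 100 is the strongest peak. Such a gap between proximal and distal libraries was found at 11.6% of the 3242 regions called in at least 11 libraries for the fold, and at 6.82% of them for the percentile. Proximal lists were also longer, and the WENR-plus ones came from deeper libraries. The part of list length or depth in this gap was not tested. The other 2 Gcg sites were each called in proximal WENR-plus replicate 1 alone. Gcg site 1, 9.78 kb upstream, had a fold of 3.80 (percentile 7.94), and Gcg site 3, 37.1 kb upstream, a fold of 4.44 (percentile 26.1). No peak overlapped the Gcg promoter, taken as 250 bp before to 50 bp after the start in RefSeq.

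Sct, the secretin gene, had the site called in all 12 libraries. Sct site 1 (chr7:141276659-141277073) was 2.28 kb from the Sct start and 1.48 kb past the 3′ end of this short gene. The nearest start, at 61 bp, was that of Cdhr5, a cadherin of the brush border of absorptive cells. Fold enrichment was 7.92, 6.27 and 6.91 in proximal WENR-plus and 6.99, 6.72 and 5.92 in proximal WENR-minus replicates 1, 2 and 3. It was 7.49, 7.11 and 6.83 in distal WENR-plus and 6.46, 5.92 and 4.66 in distal WENR-minus. Proximal and distal folds overlapped in both media, whereas the 3 distal WENR-plus folds, 6.83 to 7.49, stood above the 3 distal WENR-minus folds, 4.66 to 6.46. Such a gap between the media in distal libraries was found at 7.12% of the 2079 regions with a peak in every library. At Sct site 1 the percentiles of these groups overlapped. The median percentile over the 12 lists was 65.8. Sct site 2 (chr7:141312716-141313195) lay 33.8 kb upstream of Sct in an intron of Deaf1, 326 bp from a Deaf1 start. It was called in 5 libraries, 4 proximal and 1 distal WENR-minus, with folds of 5.64 to 8.33 and a median percentile of 72.4.

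Insl5, an insulin-like peptide of colonic L cells, had 2 weaker sites. Insl5 site 1 (chr4:103011083-103011513), 6.50 kb past the 3′ end of the gene, was called in 4 libraries, 3 proximal and 1 distal, with folds of 3.67 to 5.25 and percentiles of 8.37 to 50.9. Its summits were spread over 289 bp between libraries. Insl5 site 2, 12.6 kb upstream in an intron of Wdr78, was called in distal WENR-plus replicate 3 only (fold 6.40). Pyy, the other L cell hormone gene among the members, had no peak in its window in any library. The region nearest to the Pyy start was 67.4 kb away, nearest to Lsm12, in 4 libraries. A region in all 12 libraries, nearest to Mpp3, lay 74.1 kb away.

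Cck had 2 sites in the window and a far stronger region just beyond it. Cck site 1 (chr9:121455594-121455912) was in an exon of Trak1, 1.52 kb from a Trak1 start and 34.0 kb past the 3′ end of Cck, and it was called in 4 libraries with folds of 3.49 to 6.29. Cck site 2, 49.0 kb upstream, was called in proximal WENR-plus replicate 2 with a fold of 5.02. Among sites just inside the limit were Cck site 2 and Neurod1 site 1, at 49.7 kb from the gene body with folds of 4.3 and 5.55. The nearest one outside was 52.0 kb upstream of Cck (chr9:121546656-121548350), intergenic, with Cck as the nearest protein-coding start and Trak1 next at 93.4 kb. This region was singled out after its values were seen. It was called in all 12 libraries at percentiles of 99.4 to 100 of each list. In proximal WENR-plus its folds were 42.9, 31.9 and 50.9, and in proximal WENR-minus 37.0, 36.4 and 48.6. In distal WENR-plus they were 21.4, 38.2 and 40.5, and in distal WENR-minus 27.8, 19.6 and 59.3. Proximal and distal folds overlapped, at 31.9 to 50.9 and 19.6 to 59.3. By fold it ranked between 1 and 152 in every list, and it was the strongest peak of distal WENR-minus replicate 3. No site inside the 10 windows exceeded a fold of 15. A smaller region 54.0 kb upstream of Cck was called in 4 libraries.

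Chga, which encodes the granule protein chromogranin A, had 1 site, 37.3 kb upstream, called in proximal WENR-plus replicate 3 with a fold of 4.70 (percentile 15.4).

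**Figure D3:**
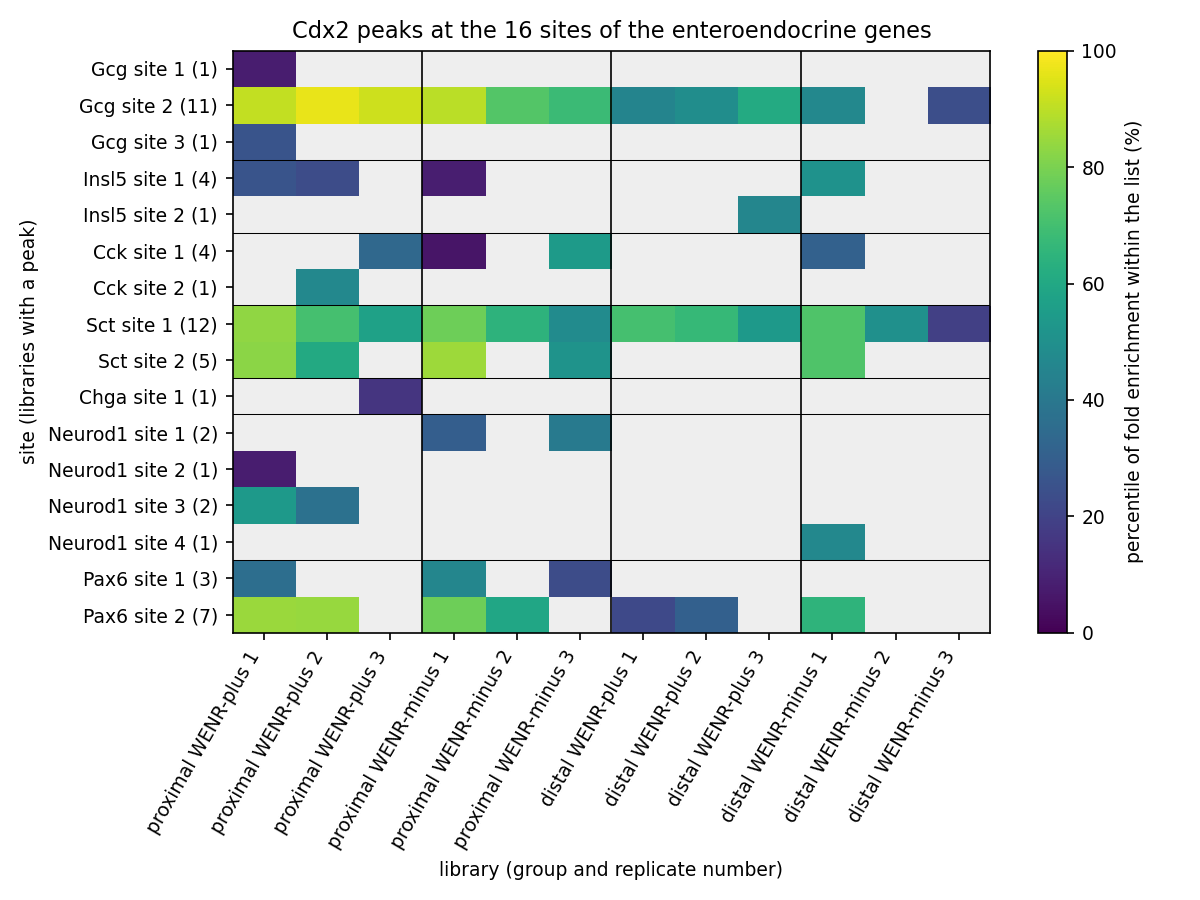
The 16 sites (rows, with the number of libraries in parentheses) in the 12 libraries (columns, group and replicate number). Colour gives the percentile of the peak's fold enrichment within its own list, from 0 to 100%, and grey cells have no peak. Sct site 1 is filled in all 12 columns and Gcg site 2 in 11, and the brightest cells of Gcg site 2 are proximal.

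Among the lineage factors, Pax6 had the site with the most libraries. Pax6, a paired homeobox factor that binds hormone gene promoters, had Pax6 site 2 (chr2:105726208-105726766) in 7 libraries, 29.2 kb past the 3′ end of the gene in an intron of Elp4. Introns of Elp4 are known to hold distant enhancers of Pax6. Its folds were 8.24 and 8.15 in proximal WENR-plus replicates 1 and 2, and 6.99 and 6.37 in proximal WENR-minus replicates 1 and 2. They were 5.29 and 5.33 in distal WENR-plus replicates 1 and 2, and 5.87 in distal WENR-minus replicate 1. The 4 proximal folds, 6.37 to 8.24, stood above the 3 distal ones, 5.29 to 5.87, as at 5.77% of the 780 regions called in 4 proximal and 3 distal libraries. The percentiles overlapped, at 59.0 to 85.0 and 22.2 to 65.2. None of the 4 replicates numbered 3 had a peak at this site. Pax6 site 1 (chr2:105670168-105670550), in an intron of Pax6 and 1448 bp upstream of one of its inner start sites, was called in 3 proximal libraries with folds of 4.75 to 4.84.

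Neurod1, a basic helix-loop-helix factor that drives hormone genes, had the most sites of any member, 4, yet none in more than 2 libraries. Neurod1 sites 1, 2 and 3 were in introns of Cerkl, 53.9, 48.0 and 32.4 kb from the Neurod1 start. Site 1 was called in 2 proximal WENR-minus libraries (folds 4.3 and 5.55), site 2 in 1 proximal WENR-plus library (3.80) and site 3 in 2 proximal WENR-plus libraries (5.39 and 4.70). Neurod1 site 4, 16.9 kb upstream, was called in distal WENR-minus replicate 1 (5.16). Neurog3 and Insm1, the factor that commits the lineage and a zinc finger factor downstream of it, had no peak in their windows. The region nearest to the Neurog3 start was 71.5 kb away in 1 library, and the nearest in at least 6 libraries was 338 kb away. For Insm1 the nearest was 56.9 kb away in 1 library, and a region in all 12 libraries, nearest to Cfap61, lay 64.9 kb away.

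The next comparison asked whether colon site or niche factors change Cdx2 occupancy around these genes. Proximal WENR-plus libraries had 10, 7 and 4 peaks in the windows, and proximal WENR-minus libraries 8, 3 and 6. Distal WENR-plus libraries had 3 each, and distal WENR-minus libraries 7, 1 and 2. The mean was 6.33 ± 2.58 peaks in proximal and 3.17 ± 2.04 in distal libraries (SD, n = 6 libraries each, from 3 mice), a 2.00-fold ratio. Pooled over libraries, 38 of 143087 proximal and 19 of 63196 distal peaks lay in the windows, or 2.66 and 3.01 per 10000 peaks. Between media the means were 5.00 ± 2.90 in WENR-plus and 4.50 ± 2.88 in WENR-minus libraries, a 1.11-fold ratio. With every list cut to the same length, the proximal to distal ratio was 1.25 (means 1.67 and 1.33) and the WENR-plus to WENR-minus ratio 2.60 (means 2.17 and 0.833), and without replicate 2 the ratio of the media turned to 0.87 (means 5.00 and 5.75). By site, 8 sites were called in proximal libraries only, 2 in distal only and 6 in both. The proximal-only share was 50%, and 56.4% of all regions lacked a distal peak. The 2 distal-only sites stand beside 6.85% of all regions, which lacked a proximal peak.

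No site of the 10 genes was called in all 3 libraries of a group and none of the group it was compared with. In WENR-plus medium, 5.44% of the regions with a peak in either group had a peak in all 3 proximal but none of the distal libraries, and 0.173% the other way round. The same shares were 3.27% and 0.534% in WENR-minus medium. Between media, 0.795% of regions were called in all proximal WENR-plus and no proximal WENR-minus library and 0.128% the other way, and the distal shares were 0.295% and 0.941%. These shares were not computed for lists of equal length or without 1 replicate. With lists of equal length, Gcg site 2 was called in all proximal WENR-minus, all distal WENR-plus and no distal WENR-minus libraries. Without 1 replicate, 2 of 2 against 0 of 2 libraries suffice, which is easier to meet. Member sites that then passed between colon sites were all proximal, and those between media went both ways. Fisher's exact test was run over the 35518 regions called in at least 2 libraries, with Benjamini-Hochberg adjustment. At an adjusted p under 0.05 it called 0% of regions for proximal against distal and 0% for WENR-plus against WENR-minus. With 6 libraries on each side, none can pass unless a very large number of regions split completely. The lowest adjusted p of this Fisher test was 0.114, for proximal against distal. From read counts, the study reported many regions differing between proximal and distal organoids and very few between media. At an unadjusted p under 0.05 the Fisher test gave 1861 and 67 of the 35518 regions. Such presence calls come from lists that were longer in proximal libraries. They are a different measure from the study's read counts, at a different threshold. None of the 9 member sites tested was among the regions under this unadjusted limit. Only sites called in an intermediate number of libraries could pass, here Sct site 2 (5 libraries) and Pax6 site 2 (7). For the other member sites the test could not have shown a difference. The lowest p among the 9 was that of Pax6 site 1, called in 3 of 6 proximal and 0 of 6 distal libraries (two-sided Fisher's exact p = 0.182, adjusted p = 0.81).

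Fold enrichment was compared with limma on the log2 scale after quantile normalization, with Benjamini-Hochberg adjustment over all regions fitted. Over the 2079 regions called in all 12 libraries, 2.79% were called for proximal against distal in WENR-plus and 1.54% in WENR-minus. For the media, 0% were called in proximal and 0.818% in distal organoids. Regions at an unadjusted p under 0.05 numbered 357, 345, 116 and 291 in the same order. For the first of these comparisons the adjusted count was 58 regions, 132 with replicate number as a block, and 0, 2 and 29 without replicate 1, 2 and 3. Sct site 1, the member site in this fit, was not among the regions called. Its proximal minus distal log2 difference was −0.34 ± 0.215 (SE) in WENR-plus (limma adjusted p = 0.466) and 0.01 ± 0.215 in WENR-minus (adjusted p = 0.992). Its WENR-plus minus WENR-minus difference was −0.05 ± 0.215 in proximal and 0.30 ± 0.215 in distal organoids (limma adjusted p = 0.999 and 0.586). The 95% intervals of the first and the last of these differences ran from −0.80 to 0.12 and from −0.16 to 0.76.

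A second limma fit, added after the values were seen, took in the 9454 regions called in at least 6 libraries and at least 1 of each group, leaving out libraries without a peak. It called 0.592% and 0.793% of regions for proximal against distal in WENR-plus and WENR-minus, and 0% and 0.0635% for the media in proximal and distal organoids. Regions at an unadjusted p under 0.05 numbered 1034, 1023, 414 and 728 in the same order. Without replicate 1, and without replicate 2, this fit called 0 regions for each, and without replicate 3 it called 2 and 23 for proximal against distal, against 56 and 75 with all libraries. At Gcg site 2 the proximal minus distal difference was 0.69 ± 0.22 (SE) in WENR-plus, a 1.61-fold ratio (limma unadjusted p = 0.00527, adjusted p = 0.179). In WENR-minus, without distal replicate 2, it was 0.57 ± 0.24 (unadjusted p = 0.0297, adjusted p = 0.372). The adjusted p of every contrast at this site lay between 0.133 and 1 over the alternatives run. The media differed there by 0.42 ± 0.22 in proximal and 0.31 ± 0.24 in distal organoids (limma adjusted p = 0.999 and 0.826). At Pax6 site 2, with 7 libraries, proximal minus distal was 0.43 ± 0.28 in WENR-plus and 0.06 ± 0.34 in WENR-minus (limma adjusted p = 0.648 and 0.98).

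**Figure D4:**
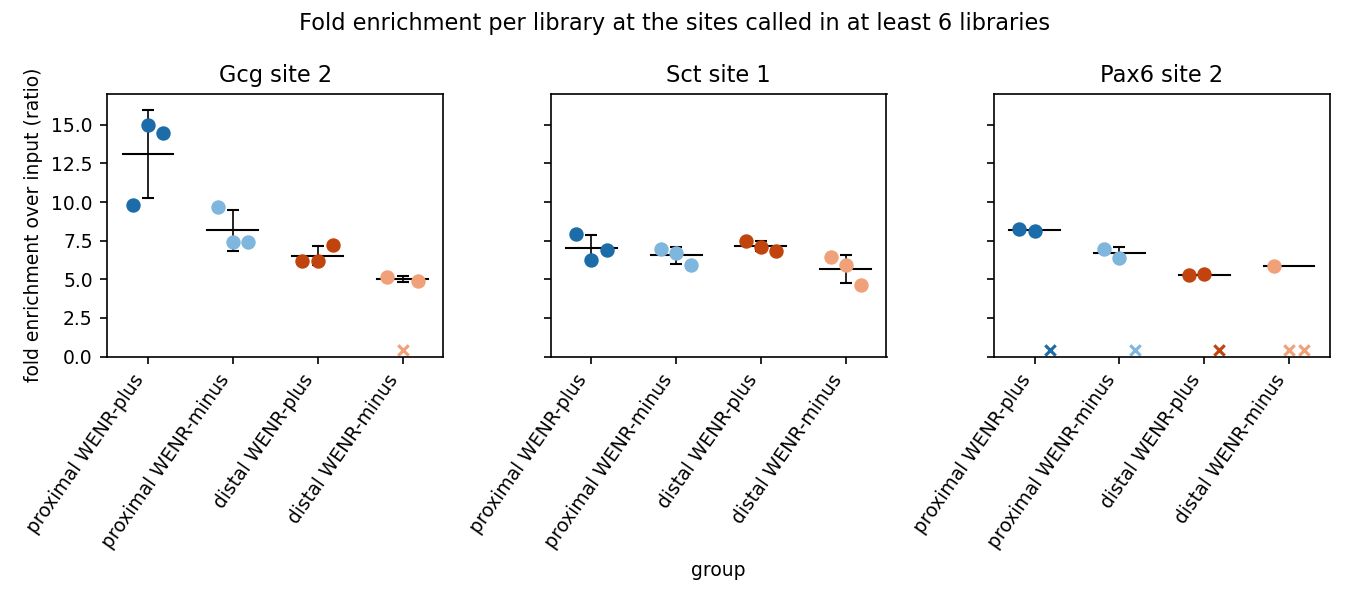
Fold enrichment over input (y axis, ratio) per library at Gcg site 2, Sct site 1 and Pax6 site 2, by group (x axis). Points are libraries in the order of replicates 1 to 3, horizontal lines group means, bars 1 SD, and crosses at the foot libraries with no peak. Folds at Gcg site 2 are 9.83 to 15 in proximal WENR-plus and 4.89 and 5.16 in distal WENR-minus, while proximal and distal folds overlap at Sct site 1.

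The Cdx2 motif lay within 50 bp of the median summit at 11 of the 16 sites, or 68.8% (95% Wilson interval 44.4% to 85.8%, counting error only). Over all regions the share was 60.4%, and 1000 bp away from the summits it was 11.7%. Gcg site 2 had 2 copies, TTTATGG on the minus strand and TTTATGA on the plus strand, centred 8 and 27 bp to the right of the summit, and the motif was within 50 bp of the summit in all 11 libraries. Sct site 1 had a single TTTATGA, 24 bp to the left, within reach of the summit in 9 of 12 libraries. Pax6 site 2 had 4 copies, 1 TTTATTG and 3 TTTATTA. Sct site 2 had 2 TTTATTA on opposite strands, whose centres were at 10 and 19 bp. Pax6 site 1 had 1 copy, TTTATTG, centred 28 bp to the left. The region upstream of Cck had 1 copy, TTTATGA, whose centre was 19 bp to the left. At Gcg sites 1 and 3, Insl5 site 1 and Neurod1 sites 1 and 4 none of these letters were in the window of 50 bp.

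RefSeq promoters, 250 bp before to 50 bp after a start, were given for 9 of the 10 genes. Of these, 2 genes (Insl5 and Pax6) had the motif in a promoter. Counted per promoter, 3 of the 12 member promoters (25%) held it, against 14.4% of all 32851 promoters. The letters were not in the Gcg promoter window. No peak overlapped any of the 12 promoter windows of the members.

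Other genes of the enteroendocrine lineage were read from 4 lists with the same windows. Their counts are set against the background shares given above of 84.5%, 44.5% and 12.9%. Windows span the gene body, so long genes have longer windows, and gene length was not matched between lists or with the background. Of 16 further transcription factors, 13 had a site, 5 in at least 6 libraries and 1 in all 12. Atoh1, the factor of the secretory lineage, had a region in all 12 libraries 25.6 kb from its start (median percentile 77.9). St18 had a region in 11 libraries at 49.2 kb, Foxa1 in 9 libraries at 62 bp and Isl1 in 6 libraries at 11.2 kb.

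Of 10 further gut hormones, 9 had a site, 3 in at least 6 libraries and 1 in all 12. Nts, the neurotensin gene, had a region in all 12 libraries 20.9 kb from its start (median percentile 83.1). Gip, the incretin hormone, had one in 9 libraries at 28.9 kb, in an intron of Igf2bp1. Iapp had one in 8 libraries at 8.47 kb, 6 proximal and 2 distal, and Tac1 one in 2 libraries at 33.0 kb.

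Of 16 genes for hormone processing and secretory granules, 14 had a site, 10 in at least 6 libraries and 2 in all 12. Pcsk1, the convertase that cuts proglucagon in L cells, had a region in all 12 libraries 47.1 kb from its start (median percentile 97.7). Pam, which amidates peptide hormones, had one in all 12 libraries in its own intron at 8.57 kb (93.8). Scg3 and Scgn each had a region in 11 libraries, that of Scgn 98 bp from a start of Slc17a4.

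Of 11 receptors of enteroendocrine cells, 8 had a site, 4 in at least 6 libraries and 2 in all 12. Ffar4, a receptor for long-chain fatty acids, had a region in all 12 libraries in its own intron at 11 kb (median percentile 98.7). Casr, the calcium-sensing receptor, had one in all 12 at 2.15 kb (93.3). Gpbar1 and Ffar2 had regions in 7 and 6 libraries, both nearer to the start of another gene.

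**Figure D5:**
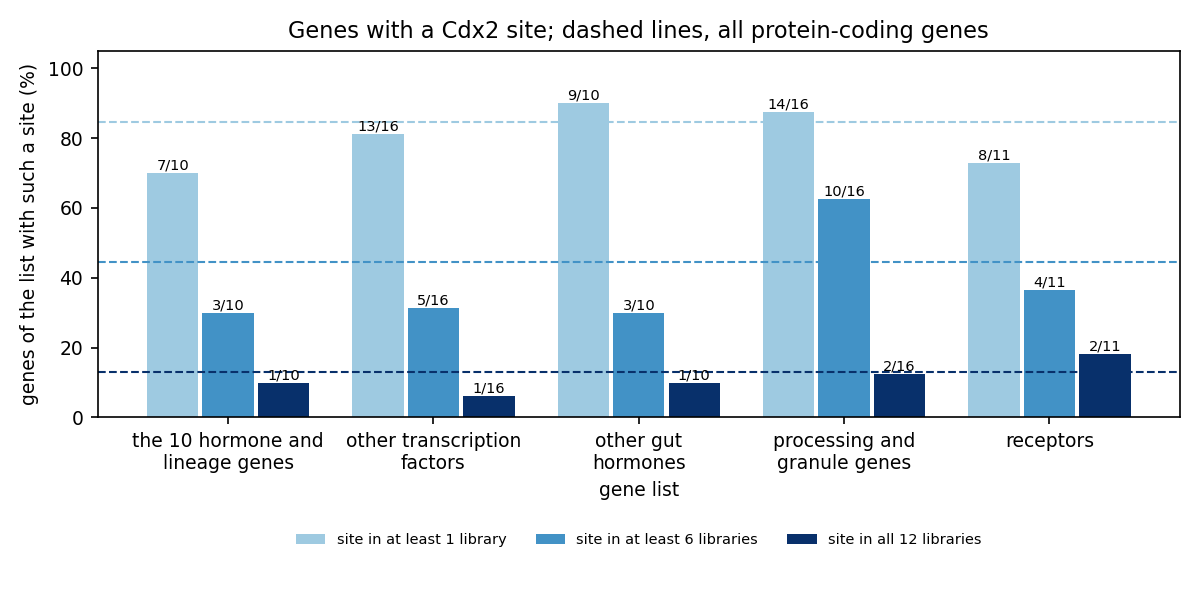
Share of genes (y axis, %) with a Cdx2 site in at least 1, at least 6 or all 12 libraries (light to dark bars) for the 10 hormone and lineage genes and 4 lists of other enteroendocrine genes (x axis), with counts above the bars. Dashed lines are the shares of all protein-coding genes, 84.5%, 44.5% and 12.9%. For sites in at least 6 libraries the 10 of 16 processing and granule genes stand above the dashed line and the other lists below it. Gene length was not matched.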

How the data were processed

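Cdx2 peaks of 12 organoid libraries (4 groups of 3) were analysed. The 12 input libraries were not analysed here. Per the submitters' processing notes for the versions, and the study's methods for the steps, reads were trimmed with Trimmomatic 0.39, aligned to mm10 with Bowtie2 2.4.5, cleared of duplicates with SAMtools 1.13, and peaks were called per library with MACS2 2.2.7.1 (q-value limit 0.01, each input serving as its control). The study's own software list names other versions of Bowtie2 and SAMtools. The authors deposited 1 line per peak, with fold enrichment as a ratio to the local input background, −log10 p and −log10 q values at the summit, a summit offset and a score made from the −log10 q. Folds were therefore made against each library's own depth and input, and only peaks past the limit have a value. Total reads are not part of the deposited lists, and the study's own figures for them did not enter any fit.

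Chromosomes 1 to 19, X and Y were used. Sequences and genes were read from GRCm38, which mm10 is another name for, and 0 peaks reached beyond a chromosome end. The percentile ranks fold within a list. Member sites in at least 6 libraries are given per library, and at most 4 genes are named per other list, those with a region in most libraries. Fisher's exact test (scipy 1.17.1) and limma 3.58.1 in R 4.3.3 were run without a block over all regions called in at least 2 and in all 12 libraries, and a second limma fit over regions called in at least 6 libraries was added after seeing the data. The limma fit was tested on simulated data for the proximal against distal comparison in WENR-plus over 2079 regions. With 200 regions changed by a log2 difference of 1.5, it recovered 197, at a mean of 1.22, so quantile normalization understates wide differences. It also called 26 unchanged regions. The simulated noise was independent between libraries, no peak was missing, and 1.5 exceeds every difference fitted at a member site. Detection of differences as small as those at the member sites was not tested. The alternatives were a stricter −log10 q of 5, lists cut to the shortest length of 5608 peaks, other flanks, chained summits, median centring, the replicate block and leaving out each replicate. The 10 genes and the other lists were chosen with earlier results of these data known.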

Additional observations from a re-analysis of the deposited data

How the results depend on the processing

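The number of sites depended most on the window and on list length. There were 16 sites with flanks of 50 kb, 4 with 10 kb and 59 with 100 kb, and 5 when every list was cut to its 5608 strongest peaks. The 3 genes without a site also depended on the window. With flanks of 100 kb all 10 genes had a site, and Pyy had 7, Neurog3 3 and Insm1 4. Leaving out 1 replicate number at a time gave 12 to 15. Sites called in all libraries numbered 1, against 0 at a −log10 q of at least 5, 0 with lists of equal length, 5 with flanks of 100 kb, and 1 to 2 without 1 replicate. Sites called in all libraries of a group and none of the other, counted once per comparison, came to 0. Lists of equal length gave 2, both Gcg site 2 against distal WENR-minus. Without replicate 1, 2 and 3, where 2 libraries a group suffice, they came to 0, 3 and 4. Genes with a site near their own start numbered 2 within 3 kb, 0 within 1 kb and 1 with lists of equal length. The motif share of 68.8% was 100% within 100 bp of the summit, where 80.2% of all regions held the motif.

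Over the 2079 regions the limma counts for the media in proximal organoids and for the interaction were 0 under every alternative run, and the other 3 moved. Proximal against distal in WENR-plus gave 58 regions, 129 with median centring, 132 with the replicate block and 0 to 29 without 1 replicate (0 without replicate 1, 2 without replicate 2). In WENR-minus it gave 32, then 62, 117 and 0 to 13. The media in distal organoids gave 17, then 0, 59 and 0 to 6. Higher and lower calls in WENR-plus were 39 and 19, and 68 and 61 with median centring. Over the 9454 regions, proximal against distal gave 56 regions in WENR-plus, 156 with median centring, 127 with the replicate block and 0 to 2 without 1 replicate, in WENR-minus 75 (60 higher, 15 lower), then 208 (190 and 18), 185 and 0 to 23, and the media in distal organoids 6, then 1, 9 and 0 to 3. The cause was not tested. The log2 ratio of peaks per library, proximal to distal, was 1.00 and 1.12 with the replicate block, and between media 0.15 and 0.32 (−0.202 to 0.503 without 1 replicate, 1.38 with lists of equal length). The organoids came from 3 mice, but the labels do not say that a number marks a mouse. Same-number libraries correlated at −0.0701 to 0.298 after removing group means, over 0.1 in 8 of 18 pairs, so the numbers were not treated as pairs. In every other group, 4 of 12 libraries correlated best with their own number, a hint from the data and not from the design. The study reported that the independent mice were the largest source of variation in Cdx2 binding. If the numbers mark mice, the main fits left out this pairing, and the fits with the replicate block took it in.

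At Sct site 1 the proximal minus distal difference in WENR-minus turned from 0.01 to −0.0824 with median centring and to −0.1 without replicate 3 (range without 1 replicate −0.1 to 0.112), and the medium difference in proximal organoids to 0.0976 without replicate 2 (range −0.159 to 0.0976). At Gcg site 2 the interaction of colon site and medium turned from 0.115 to −0.0503 without replicate 2 (range −0.0503 to 0.319). None of these differences passed the test. Lists hold only called peaks, so occupancy below the limit was not measured.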
